A study of Drosophila melanogaster with 8 samples.

Results

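Heads of flies expressing PR36 in neurons were compared directly with heads of flies in which Upf1 was knocked down in neurons. The comparison uses 3 of the 8 samples of the series, PR36 replicates 1 and 2 and UPF1 RNAi replicate 1, chosen by the names of their columns in the table of transcript levels. The table has 11 cells a line under 10 header names. The names were matched to cells from the left, and the 1 remaining value column, which no name reaches, was set aside, so the second UPF1 RNAi sample is not analysed here and every value rests on this reading. PR36 animals were Elav>PR36 and carry a proline-arginine dipeptide repeat, and UPF1 RNAi animals were Elav>UPF1 RNAi. The other genotypes, Elav>(G4C2)36 with the GGGGCC repeat itself and Elav>PA36 with a proline-alanine repeat, supplied 2 libraries each to the estimate of the spread and are shown where they place a value. All 4 genotypes shared the driver Elav, female sex, an age of 5 days, 24 °C and 60% humidity, and RNA came from 40 pooled heads per genotype over 2 replicates. Elav drives in neurons while the whole head was sequenced, so cells without the transgene are in every library. In such bulk samples fewer cells of a type and less RNA per cell cannot be told apart.

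The PR repeat is among the dipeptides translated from the GGGGCC expansion in C9orf72 that causes amyotrophic lateral sclerosis and frontotemporal dementia, and it is arginine-rich and toxic to fly neurons. Upf1 is the RNA helicase at the centre of nonsense-mediated mRNA decay (NMD), in which a ribosome that stops too far from the normal 3′ end of a message marks that message for degradation. Messages with an exon junction downstream of the stop codon or with a long 3′ UTR are classical substrates, and in Drosophila the endonuclease Smg6 cuts the marked message. Setting PR36 beside loss of Upf1 addresses how far the conditions differ from each other.

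Values are TPM, a transcript's share of the library's reads corrected for transcript length and scaled to a fixed total, and a gene's value is the sum of its listed transcripts. The depth is unknown, and the listed TPM summed to 744734 and 821172 in the PR36 libraries and to 712972 in the UPF1 RNAi library. Of the markers that define head tissue, neuronal ones summed to 1182 and 1281 TPM in PR36 and 952 TPM in UPF1 RNAi heads over 6 genes, and photoreceptor ones to 27020 and 30520 TPM against 35790 TPM over 7 genes. The order of the neuronal sums rests on nSyb, as given below. The 4 female germline markers were not among the listed genes, and the 2 listed testis markers summed to at most 0.373 TPM in these 3 libraries. Levels correlated with r = 0.948 between the PR36 libraries and with r = 0.930 and 0.937 between them and the UPF1 RNAi library, across genes, which are not independent replicates. The UPF1 RNAi library stands alone in its group and is assumed to vary like the other groups. No label says that replicates came from separate cultures, so the p-values reflect variation among these libraries, possibly technical.

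Few genes separated the conditions. Of 9287 genes tested, 32 (0.345%) were higher and 8 (0.0861%) were lower in PR36 than in UPF1 RNAi heads at a limma adjusted p below 0.05, together 0.431%, and 569 genes had an unadjusted p below 0.05. The groups did not overlap in any of the 40, nor in 37.4% of all tested genes with both PR36 libraries above UPF1 RNAi and 31.3% with both below. Among the higher genes were BNIP3, a mitophagy receptor of the outer mitochondrial membrane, sesB, the mitochondrial ADP/ATP translocase, and Kap3, the accessory subunit of the kinesin-2 motor. The neuropeptide gene Orcokinin and Su(var)3-3, the fly LSD1 histone demethylase, were among the lower ones. Across all tested genes the median log2 fold change, PR36 over UPF1 RNAi on log2(TPM + 1), was 0.02, and 52.4% of genes lay above 0. In a fit on the 3 compared libraries alone, 1 gene was called and 0 of the 40 were kept. That gene was CG2233, singled out after its values were seen, with 1770 and 1762 TPM in PR36 and a listed 0 in UPF1 RNAi heads. CG2233 was not among the 40 genes, and the spread in that fit came from the PR36 libraries alone.

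**Figure D1:**
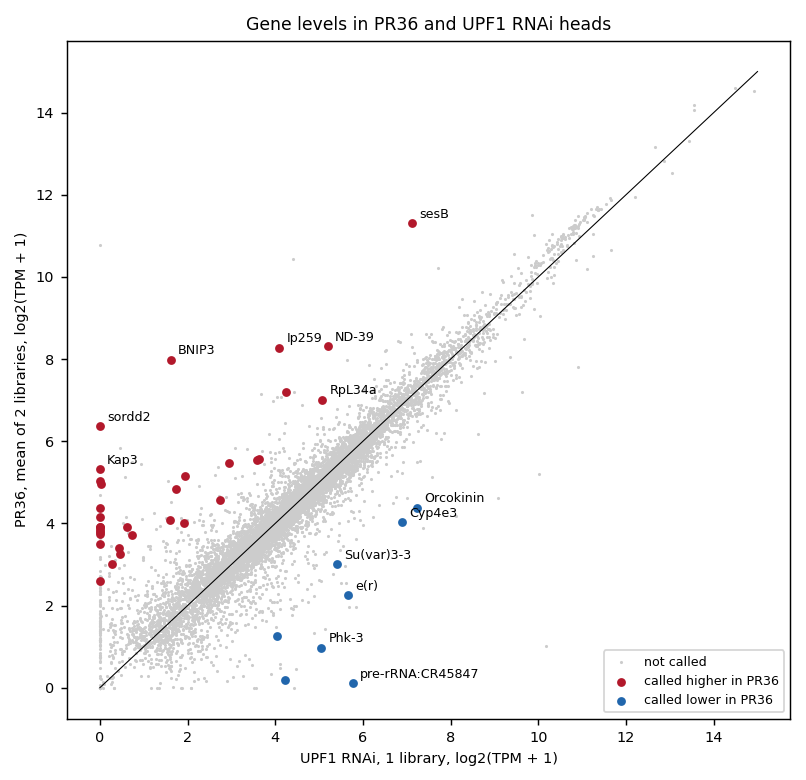
Gene levels, PR36 (mean log2(TPM + 1) of 2 libraries, vertical) against UPF1 RNAi (1 library, horizontal), for the 9287 tested genes. Red marks the 32 genes called higher and blue the 8 called lower in PR36, and the line marks equal levels.

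Most of the 32 higher genes were those in which the UPF1 RNAi library was low among all 7 libraries. It lay below all 6 others in 29 of the 32, against 13.9% of all tested genes, and it was listed at 0 in 12. The called genes already had both PR36 libraries on the same side of UPF1 RNAi. The shares of all tested genes given here are therefore not a like comparison. Both PR36 libraries lay above all 5 others in 6 of the 32, which were CG18731, mir-281-2, CG7084, Pde1c, Gar1 and gt, against 3.94% of all tested genes. Of the 8 lower genes, the UPF1 RNAi library lay above all 6 others in 6 (15.1% of all tested genes), and both PR36 libraries lay below all 5 others in 2, Orcokinin and CG42673 (2.02%). Every library of the table had such genes, since each stood over 2 log2 units below the 6 others in 14 to 32 genes. A listed 0 can also be a failed estimate, so no fold is given against one.

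**Figure D2:**
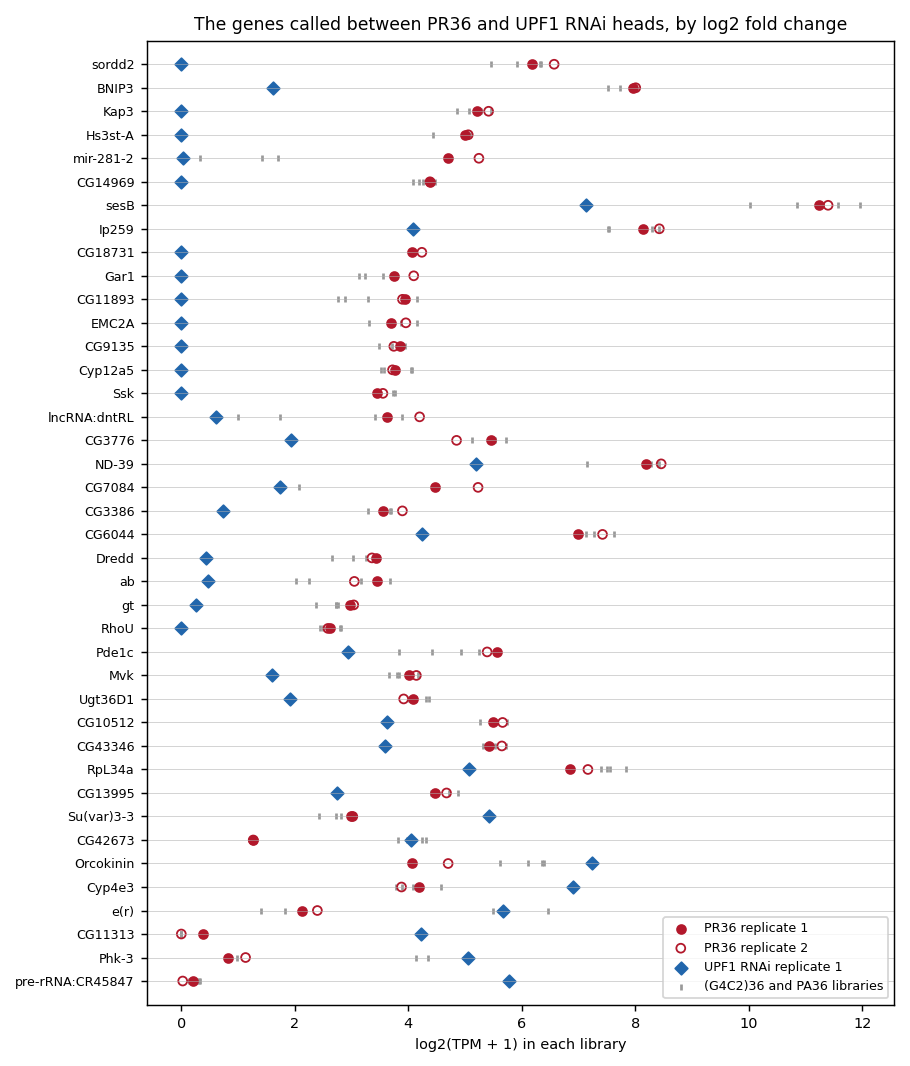
Level of each of the 40 called genes, as log2(TPM + 1), in the PR36 libraries (red circles), the UPF1 RNAi library (blue diamond) and the (G4C2)36 and PA36 libraries (grey ticks), ordered by log2 fold change. In 29 of the 32 higher genes the diamond lies left of every other point.

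BNIP3, sesB, ND-39 and Cyp12a5 encode mitochondrial proteins and are described together, a grouping made after their values were seen. BNIP3 (FBgn0037007, chromosome 3L, 20514598 to 20519393, minus strand) had 248 and 256 TPM in PR36 heads and 2.07 TPM in the UPF1 RNAi library. The (G4C2)36 and PA36 libraries had 182 to 256 TPM, so the UPF1 RNAi library was the low one and the groups did not overlap. The log2 fold change was 6.37 (SE 0.27, adjusted p = 0.000491). The level of sesB (FBgn0003360, X, 10780893 to 10786958, minus strand) was 2408 and 2693 TPM in PR36 against 139 TPM in UPF1 RNAi heads, and its log2 fold change was 4.19 (SE 0.37, adjusted p = 0.00544). Its other 4 libraries ranged from 1040 to 3998 TPM, again above UPF1 RNAi. The annotation places Ant2, a second translocase gene, inside the sesB locus on the same strand over 6015 bases, and how reads were divided between them is not known. ND-39, a subunit of respiratory complex I, had 290 and 350 TPM in PR36 and 35.7 TPM in UPF1 RNAi heads, with a log2 fold change of 3.12 (SE 0.43, adjusted p = 0.0422). Of its 2 reference transcripts, 1 was listed. Cyp12a5, a mitochondrial cytochrome P450, had 12.5 and 12.2 TPM in PR36 and was listed at 0 in UPF1 RNAi heads (adjusted p = 0.00317), while its neighbour Cyp12a4 had 83.2 and 73.0 TPM against 75.2 TPM.

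Other genes with clear levels in PR36 were listed at 0 in the UPF1 RNAi library. Kap3 (X, 11334187 to 11340084) had 36.1 and 41.6 TPM in PR36 heads and 28.0 to 42.7 TPM in the other genotypes, with an adjusted p of 0.00152. The gene sordd2 (X, 15796908 to 15799162; CG32581 in the table) had 71.2 and 93.9 TPM in PR36 and 43.1 to 80.3 TPM in the other genotypes (adjusted p = 0.00178). Its neighbour sordd1, 879 bases away on the same strand, had 24.6 and 132 TPM in PR36 and 117 TPM in UPF1 RNAi heads, so the PR36 libraries lay on both sides of it. Hs3st-A, a heparan sulfate 3-O-sulfotransferase, had 31.1 and 32.3 TPM in PR36 heads (adjusted p = 0.00317). It was listed at 0 in both (G4C2)36 libraries as well, and at 20.5 and 32.9 TPM in PA36, so UPF1 RNAi was not alone. EMC2A, a subunit of the endoplasmic reticulum membrane complex, had 12.0 and 14.5 TPM (adjusted p = 0.0127), and CG14969, with no role given here, had 19.7 and 19.8 TPM (adjusted p = 0.00166), each against a listed 0.

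Genes of ribosome assembly and translation were also present. Ip259, whose yeast homologue Nsa2 acts in assembly of the large ribosomal subunit, had 279 and 342 TPM in PR36 and 16.04 TPM in UPF1 RNAi heads, a log2 fold change of 4.18 (SE 0.24, adjusted p = 0.00152). It overlaps RpS27A on the same strand over its whole 1259 bases, and RpS27A itself, at 1988 and 2234 TPM against 1524 TPM, was not called (adjusted p = 1). Gar1, a core protein of the box H/ACA particles that guide pseudouridylation, had 12.4 and 16.1 TPM in PR36 and was listed at 0 in UPF1 RNAi heads (adjusted p = 0.00434). RpL34a, a protein of the large ribosomal subunit, had 115 and 142 TPM against 32.7 TPM, a log2 fold change of 1.93 (SE 0.26, adjusted p = 0.0376). Its PR36 levels were below the 168 to 226 TPM of the (G4C2)36 and PA36 libraries, so PR36 lay between those and UPF1 RNAi, and the call was lost without PR36 replicate 2 or either (G4C2)36 replicate.

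Some genes were higher in PR36 than in every other genotype, not all by a wide margin. CG18731 had 15.8 and 17.9 TPM in PR36 heads and was listed at 0 in the other 5 libraries (adjusted p = 0.0133). With a pseudocount of 0.1 in place of 1 it was not called. The microRNA gene mir-281-2 (chromosome 2R, 12170153 to 12170244, minus strand) had 24.9 and 36.9 TPM in PR36, 0.0212 TPM in UPF1 RNAi and at most 2.27 TPM elsewhere, with a log2 fold change of 4.94 (SE 0.42, adjusted p = 0.00458). Its 92 bases lie within Oda, the antizyme that limits polyamine synthesis, on the same strand. A value for so short a gene may hold reads of Oda, which had 1358 and 1365 TPM in PR36 and 1848 TPM in UPF1 RNAi heads. The related mir-281-1, 128 bases away on the same strand, had 22.7 and 0.199 TPM in (G4C2)36 replicates 1 and 2. In PR36 it had 0.0244 and 0.0382 TPM, so values at this locus can differ widely between replicates. CG7084 had 21.0 and 36.5 TPM in PR36 against 2.35 TPM in UPF1 RNAi, a log2 fold change of 3.10 (SE 0.41, adjusted p = 0.0361), and 2.20 to 3.21 TPM in the other 4 libraries. Pde1c, a calmodulin-dependent cyclic nucleotide phosphodiesterase, had 46.4 and 40.9 TPM against 6.69 TPM (log2 fold change 2.54, SE 0.33, adjusted p = 0.0327), with 13.3 to 36.8 TPM in the (G4C2)36 and PA36 libraries. The gene gt, the gap-gene transcription factor giant, had 6.82 and 7.21 TPM against 0.203 TPM (2.74, SE 0.34, adjusted p = 0.0317). The (G4C2)36 and PA36 libraries had 4.19 to 5.81 TPM of gt, so UPF1 RNAi was the low one.

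The remaining higher genes included Dredd, the caspase of the Imd immune pathway, with 9.72 and 9.26 TPM in PR36 and 0.355 TPM in UPF1 RNAi heads (log2 fold change 2.95, SE 0.33, adjusted p = 0.0164). CG11893 had 14.3 and 13.9 TPM against a listed 0 (adjusted p = 0.0127). Mvk, mevalonate kinase, had 15.2 and 16.7 TPM in PR36 and 2.04 TPM in UPF1 RNAi heads (2.48, SE 0.30, adjusted p = 0.0258). CG33672, which shares all 1976 bases of the Mvk locus on the same strand, had 3.44 and 3.61 TPM in PR36 and 11.5 TPM in UPF1 RNAi heads, the opposite order, without passing the test (adjusted p = 0.22). CG9135, at 13.5 and 12.4 TPM against a listed 0, and CG13995, at 21.0 and 24.5 TPM against 5.68 TPM, lie 424 bases apart on the same strand and were both called (adjusted p = 0.00434 and 0.0472). Of the 40 called genes, 18 overlap another listed gene, 16 of them among the higher ones, and the sources used here do not say whether the authors' quantification used strand.

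All of the 8 lower genes are described here. The precursor pre-rRNA:CR45847 of the ribosomal DNA unit had 0.151 and 0.0172 TPM in PR36 and 53.6 TPM in UPF1 RNAi heads, a log2 fold change of -5.66 (SE 0.47, adjusted p = 0.00434). Ribosomal DNA is repeated, and the mature 28SrRNA:CR45844 within that precursor had 300.2 and 298 TPM in PR36 against 91.0 TPM in UPF1 RNAi heads (adjusted p = 0.248), which is the opposite order, and the assignment of reads among the copies is uncertain. Phk-3, pherokine-3, a small secreted protein of the chemosensory protein family, had 0.764 and 1.19 TPM in PR36 and 32.2 TPM in UPF1 RNAi heads (log2 fold change -4.08, SE 0.34, adjusted p = 0.00449). (G4C2)36 libraries had 19.4 and 16.6 TPM and PA36 libraries 0.800 and 0.964 TPM, so PA36 was as low as PR36. CG3776, which meets Phk-3 end to end over 13 bases on the opposite strand, moved the other way, with 42.9 and 27.8 TPM against 2.82 TPM (3.22, SE 0.34, adjusted p = 0.0127).

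Orcokinin, which encodes neuropeptides, had 15.8 and 25.0 TPM in PR36 and 150 TPM in UPF1 RNAi heads, a log2 fold change of -2.85 (SE 0.40, adjusted p = 0.0424). The (G4C2)36 and PA36 libraries had 47.9 to 83.1 TPM, so PR36 was the lowest and UPF1 RNAi the highest genotype. CG42673 had 1.39 and 1.41 TPM in PR36 against 15.5 TPM (-2.79, SE 0.28, adjusted p = 0.0113), and at 13.1 to 18.8 TPM the other 4 libraries resembled UPF1 RNAi. Su(var)3-3 had 6.96 and 7.12 TPM in PR36 and 41.7 TPM in UPF1 RNAi heads (-2.41, SE 0.34, adjusted p = 0.0424), with 4.36 to 7.06 TPM elsewhere. The P450 gene Cyp4e3 had 17.2 and 13.7 TPM against 118 TPM (-2.86, SE 0.36, adjusted p = 0.0317), with 12.8 to 23.0 TPM elsewhere. The gene e(r), enhancer of rudimentary, had 3.35 and 4.27 TPM in PR36 and 49.7 TPM in UPF1 RNAi heads (-3.41, SE 0.44, adjusted p = 0.0327). The gene was as high in (G4C2)36, at 87.5 and 44.0 TPM, as in UPF1 RNAi, and as low in PA36, at 1.66 and 2.56 TPM, as in PR36. CG11313 had 0.309 and 0 TPM against 17.7 TPM (adjusted p = 0.0327) and was listed at 0 in the other 4 libraries. The calls of Cyp4e3, Orcokinin, CG11313 and Su(var)3-3 were lost without either (G4C2)36 replicate, and that of Su(var)3-3 also without either PR36 replicate.

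Several calls depended on the rescaling, the filter or a single library. Median-of-ratios rescaling ended 5 of the 40 calls, those of ND-39, CG11893, Pde1c, ab and Cyp4e3. Quantile normalization ended these and also those of Dredd, lncRNA:dntRL and CG11313, 8 in all. A pseudocount of 0.1 ended 4 calls, those of CG18731, pre-rRNA:CR45847, CG11313 and Su(var)3-3, and a minimum mean of 5 TPM ended those of ab, gt and pre-rRNA:CR45847. Without the filter on low values 21 calls were lost, sesB and e(r) among them. Leaving out either (G4C2)36 replicate ended 17 calls, including those of CG3776, CG7084, Mvk, Pde1c, gt and CG13995. Without PR36 replicate 1, 9 calls were lost, with Pde1c, gt and CG13995 among them, and without PR36 replicate 2, 10 were lost, with CG7084, gt and CG13995 among them. Leaving out either PA36 replicate ended the call of CG13995. Of the 40 called genes, 31 had every reference transcript listed. A fit on such genes alone called 24 higher and 7 lower and lost 0 of the 31. The sums of the others, ND-39, sesB, Kap3, RpL34a, e(r), Pde1c, ab, RhoU and CG10512, leave out some reference transcripts. The part of unlisted transcripts in these differences was not tested.

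Close to the threshold but not past it, apolpp, the lipoprotein precursor made in fat body, had 339 and 149 TPM in PR36 and 1919 TPM in UPF1 RNAi heads (-3.09, SE 0.46, adjusted p = 0.0535). The 4 markers of head fat body, apolpp included, summed to 443 and 297 TPM in PR36 and 1979 TPM in UPF1 RNAi heads. The other libraries had 1024 to 2535 TPM. The low PR36 sum against UPF1 RNAi came from apolpp. Without it, the remaining markers together were not lower in PR36 than in UPF1 RNAi heads. The part of fat body content in the other differences was not tested. The next genes below the threshold were mRpL53 at 4.15 and 4.52 TPM against 25.6 TPM (adjusted p = 0.0592), CG32808 at 3.10 and 4.37 TPM against 28.3 TPM (adjusted p = 0.0625) and mthl8 at 8.24 and 10.2 TPM against 43.4 TPM (adjusted p = 0.0676).

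No NMD factor passed the test as a gene sum. The knocked-down gene, Upf1, had 18.6 and 19.6 TPM in PR36 and 11.3 TPM in the UPF1 RNAi library, a log2 fold change of 0.70 (SE 0.37, adjusted p = 1). UPF1 RNAi was thus lower than both PR36 libraries, but PA36 replicate 1 was lower still at 10.3 TPM, so the whole-head level does not set the knockdown apart. Of the 8 NMD factors tested, 4 lay above 0 and 4 below, with a median of -0.05, beside 0.02 over all genes. The endonuclease gene Smg6 had 43.4 and 46.5 TPM in PR36 and 73.2 TPM in UPF1 RNAi heads (-0.69, SE 0.28, adjusted p = 0.775), and Smg5, a decay adaptor, had 44.0 and 57.0 TPM against 72.0 TPM (-0.51, SE 0.31, adjusted p = 1). In both the UPF1 RNAi library was the highest of all 7. Upf2 and Upf3, partners of Upf1, and nonC, the fly Smg1 kinase, differed by 0.14, -0.10 and 0.00, and the release factors eRF1 and eRF3 by -0.16 and 0.45 on the log2 scale. Of 7 exon junction complex genes, 2 lay above 0 and 5 below, and 0 were called as genes. Some single transcripts were called. eRF3-RD had 58.4 and 61.2 TPM in PR36 and 0.352 TPM in UPF1 RNAi heads (adjusted p = 0.0107). eRF1-RC, eRF1-RH and btz-RC, of an exon junction gene, were at a listed 0 in each PR36 library. In UPF1 RNAi heads they had 16.5, 27.8 and 14.85 TPM (adjusted p = 0.0261, 0.0302 and 0.0431). The other genotypes had at least 35.2 TPM of eRF1-RC and 14.6 TPM of eRF1-RH, and a listed 0 of btz-RC.

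Reported NMD targets of the fly were mostly lower in PR36, without passing the test. Gadd45, a stress gene whose message is degraded by NMD in flies, had 38.6 and 37.5 TPM in PR36 and 109 TPM in UPF1 RNAi heads (-1.49, SE 0.33, adjusted p = 0.216). The other 4 libraries had 15.1 to 38.9 TPM, so UPF1 RNAi was the highest of all. The sex-determination gene tra, whose default transcript carries an early stop codon, had 14.7 and 14.8 TPM in PR36 against 25.9 TPM (-0.77, SE 0.30, adjusted p = 0.742), and Oda differed by -0.44 (SE 0.22, adjusted p = 0.993). Arc1, a retrovirus-like capsid gene of synapses, went the other way, with 156 and 142 TPM in PR36 and 62.7 TPM in UPF1 RNAi heads (1.23, SE 0.29, adjusted p = 0.244), while PA36 had 23.8 and 29.8 TPM. The median of these 4 genes was -0.61.

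**Figure D3:**
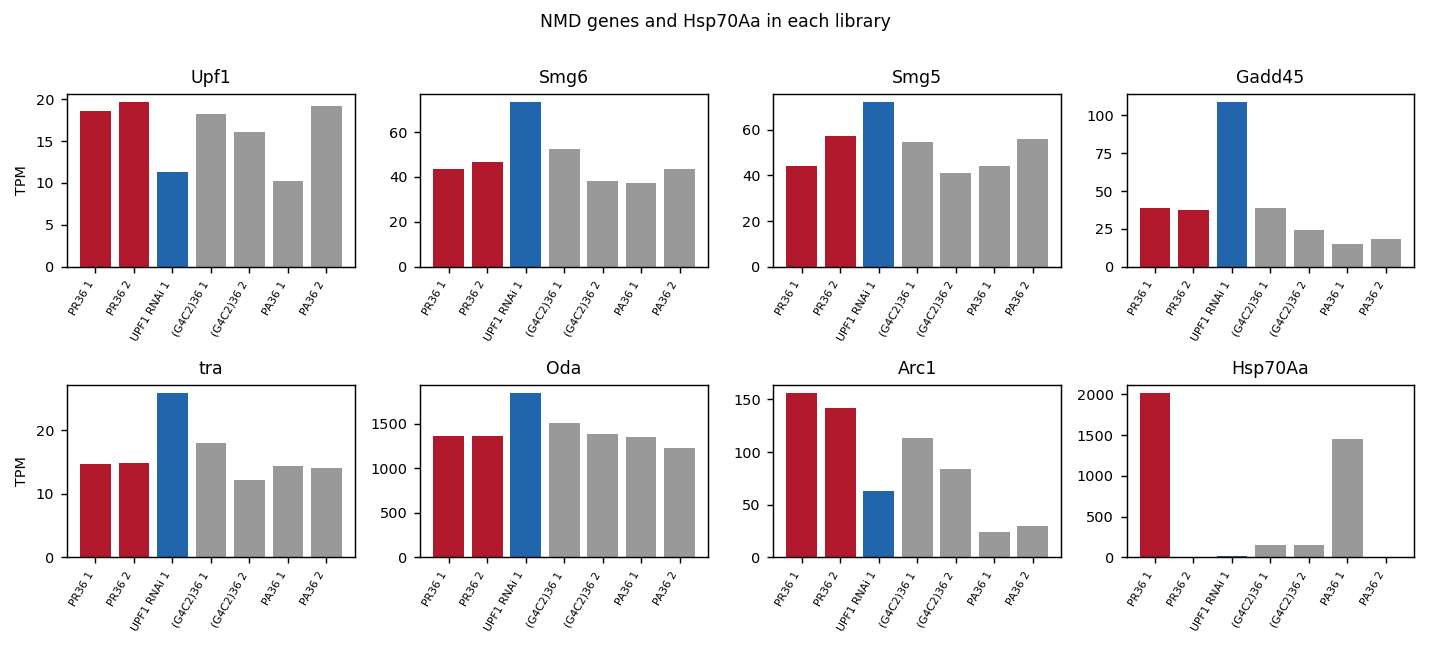
TPM of Upf1, the NMD factors Smg6 and Smg5, 4 reported NMD targets and Hsp70Aa in each library, with PR36 in red, UPF1 RNAi in blue and the other genotypes in grey. Gadd45 reaches 109 TPM in UPF1 RNAi, and Hsp70Aa reaches 2020 TPM in PR36 replicate 1 against 6.77 TPM in replicate 2.

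Transcripts with features that NMD recognises lay slightly lower in PR36 relative to UPF1 RNAi heads than transcripts at large. Of 15275 coding transcripts tested, 51.3% lay above 0, with a median log2 fold change of 0.01. Among 572 transcripts whose annotated stop codon ends at least 50 bases before the last exon junction, 257 lay above 0 (44.9%) and the median was -0.05. Among 3823 transcripts with the longest 3′ UTRs, the top 25% by length, from 796 bases, 1634 lay above 0 (42.7%) and the median was -0.08. With PR36 replicate 1 alone the medians were -0.07 and -0.06 beside -0.03 over all coding transcripts, and with replicate 2 alone they were -0.03 and -0.04 beside 0.07. Calls among the stop-codon transcripts were 3 higher and 3 lower, 1.05% of them, and among the long-UTR transcripts 16 and 12, 0.732%, beside 0.740% of all coding transcripts. These sets share gene and transcript length with other properties, and no test was made over their members.

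At the level of single transcripts, 73 of 15794 (0.462%) were higher and 43 (0.272%) were lower in PR36, together 0.734%. They belong to 102 genes, of which 22 were called as genes and 80 were not. Leaving out either PR36 replicate left 0 transcripts called higher, and leaving out any other library left at most 12, so these calls rest on the full set of libraries. The UPF1 RNAi library lay outside all 6 others in 58 of the 73 (13.3% of all tested transcripts lay with it lowest) and in 30 of the 43 (16.3% highest). Over all tested transcripts both PR36 libraries lay above the UPF1 RNAi library in 35.3% and below it in 32.4%. Both PR36 libraries lay outside all 5 others in 17 of the 73 (4.77%) and 17 of the 43 (2.61%). The called transcripts already had both PR36 libraries on the same side of UPF1 RNAi, so these shares of all tested transcripts are not a like comparison.

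In 10 genes, transcripts were called in opposite directions while the gene's sum was not called in any of them, with the widest gene-level log2 change at 0.786. mAcon1, mitochondrial aconitase of the tricarboxylic acid cycle, had 534 and 659 TPM of transcript RB in PR36 and 0.155 TPM in UPF1 RNAi heads. Its transcript RD had 3.67 and 3.33 TPM against 519 TPM, and the gene's sum was 538 and 663 TPM in PR36 and 520 TPM in UPF1 RNAi heads. The near-constant sum came from RB in PR36 and from RD in UPF1 RNAi heads. Both start at 21168651 on chromosome 2L, and RD ends 122 bases further, so its 3′ UTR is 369 bases against 247. The adjusted p-values were 0.00902 for RB and 0.0308 for RD.

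AdipoR, the adiponectin receptor, had 294 and 313 TPM of RA in PR36 and 1.28 TPM in UPF1 RNAi heads (adjusted p = 0.00390), and 1.06 and 2.15 TPM of RD against 224 TPM (adjusted p = 0.0186). Its sum was 298 and 322 TPM against 268 TPM, and here the transcript of the UPF1 RNAi library has the shorter 3′ UTR, 306 bases against 730. The microtubule-binding gene tau had 64.4 and 87.9 TPM of RA in PR36 and 0.427 TPM in UPF1 RNAi heads (adjusted p = 0.0103), and 0.451 and 0.381 TPM of RB against 86.7 TPM (adjusted p = 0.0153). These share a 3′ UTR of 792 bases and differ at the 5′ end. A further tau transcript, RN, was also called higher, with 6.52 and 7.44 TPM in PR36 and 0.00129 TPM in UPF1 RNAi heads (adjusted p = 0.0422). Its 3′ UTR has 1847 bases, and its stop codon ends 995 bases before the last exon junction. CG34330 had 63.2 and 161 TPM of RA against a listed 0, and 0.00678 and 0.00657 TPM of RB against 120 TPM. In Hydr2 and CG1983, the transcript RB, with 3′ UTRs of 1261 and 731 bases against 787 and 286 for RA, had 38.9 and 24.9 TPM in UPF1 RNAi heads and at most 2.11 TPM in PR36. In these 6 genes the UPF1 RNAi library stood apart from all 6 others.

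In 2 of the 10 genes the PR36 libraries stood apart instead. Vha44, subunit C of the vacuolar proton pump, had 56.7 and 71.4 TPM of RE in PR36 heads, 3.05 TPM in UPF1 RNAi and at most 2.24 TPM in the others (adjusted p = 0.0259). Its RF had 1.15 and 0.951 TPM in PR36 and 67.4 TPM in UPF1 RNAi heads (adjusted p = 0.0110), with 50.2 TPM or more in the other genotypes, and both have a 3′ UTR of 1153 bases. CG5888 had 18.5 and 24.3 TPM of RA in PR36 and a listed 0 in all 5 others, where RB took 15.3 to 20.5 TPM. The last 2 genes were mixed. In cdm, an importin, PR36 (49.4 and 52.8 TPM of RA) resembled (G4C2)36, and UPF1 RNAi (0.978 TPM of RA, 44.9 TPM of RB) resembled PA36. In Cadps, a regulator of dense-core vesicle release, RF had 18.0 and 14.9 TPM in PR36 against a listed 0, and RA had a listed 0 in each PR36 library and 21.5 TPM in UPF1 RNAi heads. Over the 10 pairs, the transcript higher in UPF1 RNAi had the longer 3′ UTR in 4, the shorter in 1 and an equal one in 5. For tau this count takes RA and RB. It leaves out RN, whose 3′ UTR is longer than that of RB. Transcripts of a gene share most of their sequence, so how reads were divided among them can set these values, and this was not tested.

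**Figure D4:**
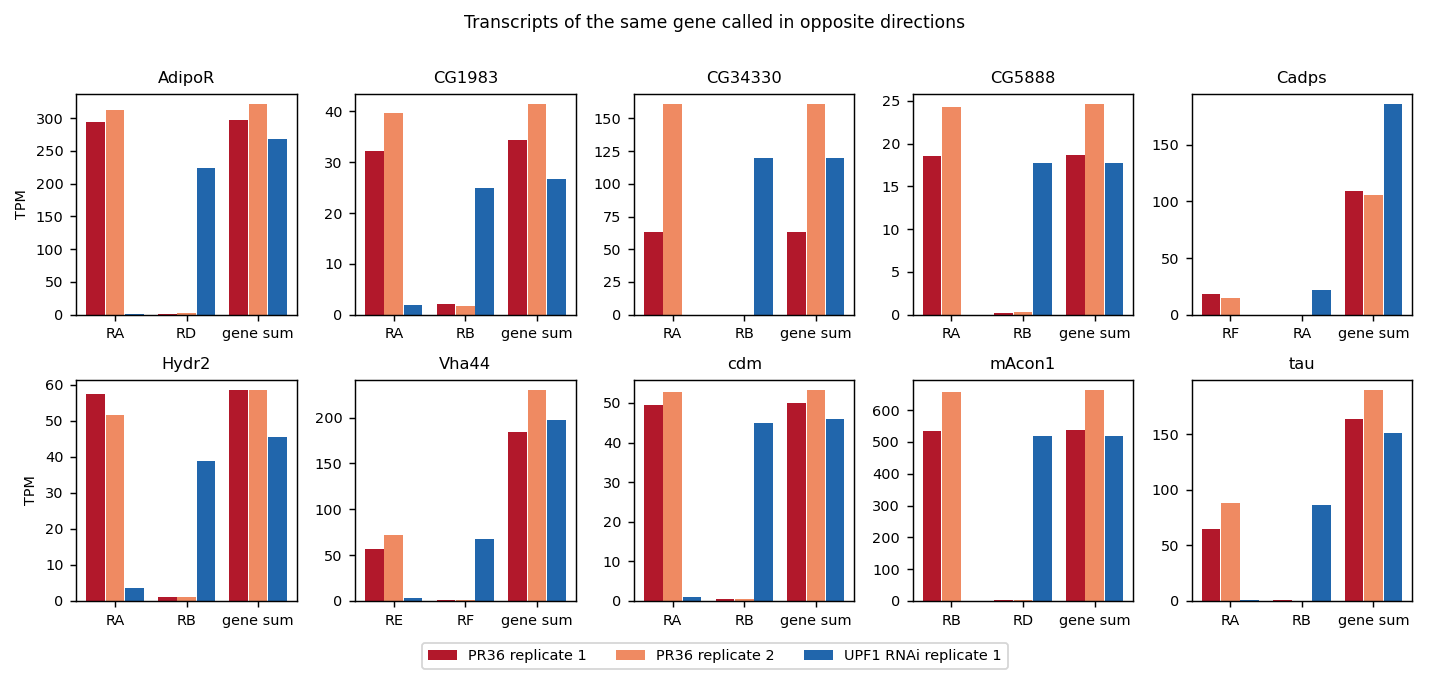
TPM of the transcript called higher in PR36, the transcript called lower, and the gene's sum, for the 10 genes with calls in both directions, in PR36 replicates 1 and 2 and UPF1 RNAi replicate 1. In mAcon1 the bars of RB and RD exchange places between the conditions while the sums are 538, 663 and 520 TPM. For tau, RA is shown and RN, also called higher, is not.

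Single transcripts of 5 more genes had wide contrasts, while none of the 5 was called as a gene. Ubc6-RC, of an E2 ubiquitin-conjugating enzyme, had 177 and 193 TPM in PR36, 0.406 TPM in UPF1 RNAi and at most 0.521 TPM in the other libraries, so it stood out in PR36 (log2 fold change 7.05, SE 0.31, adjusted p = 0.00899). Idh3g-RC, of a subunit of mitochondrial isocitrate dehydrogenase, had 106 and 117 TPM in PR36 against a listed 0 (adjusted p = 0.0443). An ATPsynC transcript, FBtr0305122, of the membrane ring of ATP synthase, had 274 and 338 TPM against a listed 0 (adjusted p = 0.0184), while the ATPsynC gene sum was 2025 and 2317 TPM in PR36 and 1864 TPM in UPF1 RNAi heads. RpS21-RF, of a small-subunit ribosomal protein, was at a listed 0 in each PR36 library and at 145 TPM in UPF1 RNAi heads (adjusted p = 0.0110), and at 0 everywhere else. Bacc-RB had a listed 0 in PR36 and in PA36, with 87.5 TPM in UPF1 RNAi and 162 and 130 TPM in (G4C2)36 (adjusted p = 0.00902), so it joined UPF1 RNAi with (G4C2)36.

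The gene lists held few calls. Of 85 cytosolic ribosomal protein genes tested, 1 was called higher (RpL34a) and 0 lower, 82 lay above 0, and the median log2 fold change was 0.37, beside 52.4% above 0 and a median of 0.02 over all genes. Both PR36 libraries exceeded the UPF1 RNAi library in 78 of the 85, against 37.4% of all tested genes. Together the listed ribosomal protein genes took 21.9% and 22.1% of the listed TPM in PR36 and 18.9% in UPF1 RNAi heads, with 16.7% and 14.5% in (G4C2)36 and 22.9% and 23.5% in PA36. Quantile normalization, which forces equal distributions on the libraries, left 57 of the 85 above 0 and a median of 0.05. Translation factors had 40 of 46 above 0, a median of 0.33 and 0 calls. The elongation factor gene eEF1alpha1 had 9480 and 8966 TPM in PR36 and 6475 TPM in UPF1 RNAi heads (adjusted p = 0.987). Ribosome biogenesis genes had 22 of 26 above 0 and a median of 0.31. The snoRNA host genes, whose spliced RNAs are known NMD substrates in mammals, had 0 of 5 above 0, 4 below and a median of -0.75, with 0 calls. Their share of the listed TPM was 0.00714% and 0.00952% in PR36 and 0.01625% in UPF1 RNAi heads. It was 0.00662% to 0.00998% in the (G4C2)36 and PA36 libraries, so UPF1 RNAi was again the high one. Uhg5, the most abundant, had 37.5 and 49.3 TPM in PR36 and 73.0 TPM in UPF1 RNAi heads (adjusted p = 0.864).

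Respiratory gene lists had smaller medians. Complex I had 28 of 33 genes above 0, 1 called higher (ND-39) and a median of 0.16, but the median was 0.02 with PR36 replicate 1 alone and 0.37 with replicate 2 alone. Complexes II to V had 29 of 32 above 0, a median of 0.20 and 0 calls, and the median was 0.06 (20 of 32 above 0) with PR36 replicate 1 alone and 0.38 (30 of 32) with replicate 2 alone. Mitochondrial ribosomal proteins had 55 of 73 above 0 and a median of 0.15, and 33 of 73 with PR36 replicate 1 alone, against 67 of 73 with replicate 2 alone.

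Of 33 neuropeptide genes, 1 (Orcokinin) was called lower and 0 higher, 27 lay below 0, and the median was -0.47. Together the listed neuropeptide genes took 0.219% and 0.227% of the listed TPM in PR36 and 0.343% in UPF1 RNAi heads. They took 0.223% to 0.234% in the (G4C2)36 and PA36 libraries, so UPF1 RNAi was the high one. Ms, myosuppressin, had 177 and 206 TPM in PR36 and 355 TPM in UPF1 RNAi heads (adjusted p = 0.443), whereas Ilp2, an insulin-like peptide of the brain, had 161 and 155 TPM against 160 TPM. Of 30 synaptic vesicle and active zone genes, 22 lay below 0, with a median of -0.21 and 0 calls, although the list's summed level was 3892 and 4129 TPM in PR36 and 3704 TPM in UPF1 RNAi heads. The most abundant member, nSyb, neuronal synaptobrevin, had 763 and 833 TPM in PR36 and 420 TPM in UPF1 RNAi heads (adjusted p = 0.339). The excess of the list's sum in PR36 came mostly from nSyb. Neuronal markers had 15 of 24 below 0 (median -0.23, and -0.26 and -0.11 with PR36 replicates 1 and 2 alone). The 6 defining ones summed to 1182 and 1281 TPM in PR36 and 952 TPM in UPF1 RNAi heads. That order came from nSyb, and without it the remaining markers together were lower in PR36. Glial markers had 7 of 16 below 0 (median 0.02) and photoreceptor genes 15 of 26 (median -0.02). Endoplasmic reticulum chaperones had 20 of 22 below 0 and a median of -0.19, with 0 calls, and 2 of 22 lay above 0 with PR36 replicate 1 alone against 8 of 22 with replicate 2 alone.

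Lists of non-neuronal cells lay on both sides of 0, with 0 calls. Muscle sarcomere genes had 19 of 23 above 0 (median 0.41), hemocyte and prophenoloxidase genes 12 of 12 (median 0.53) and Bomanins and immune-induced peptides 13 of 18 (median 0.56), while antimicrobial peptides had 3 of 10 above 0 (median -0.43). Head fat body and lipoprotein genes had 9 of 18 above 0 (median 0.00), and gut digestive enzymes had 1 of 5 (median -0.62). The 4 defining fat body markers summed lower in PR36 through apolpp, as given above. Summed over the 4 defining muscle markers, levels were 1179 and 1262 TPM in PR36 and 884 TPM in UPF1 RNAi heads, inside the 846 to 2157 TPM of the other genotypes. The 5 defining hemocyte markers summed to 107 and 167 TPM against 80.4 TPM, and 1 of them was listed at 0 in at least 1 of the 3 libraries.

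Heat shock genes split the PR36 libraries. Inducible Hsp70 and Hsp68 genes had 7 of 7 above 0 with a median of 2.87, but the median was 5.67 with PR36 replicate 1 alone and 0.07 with replicate 2 alone, and 0 were called. Hsp70Aa had 2020 and 6.77 TPM in PR36 and 14.6 TPM in UPF1 RNAi heads, so the PR36 libraries lay on both sides of UPF1 RNAi. The small heat shock gene Hsp26 had 976 and 20.9 TPM against 20.5 TPM. PA36 replicate 1 was high as well, at 1448 TPM of Hsp70Aa. A fit without PR36 replicate 1 and PA36 replicate 1 took its spread from the (G4C2)36 libraries alone, with 1 residual degree of freedom. Its number of calls was therefore not read as a result on the heat shock difference. Of the integrated stress response genes, 8 of 14 lay above 0, and Thor, the 4E-BP gene that restrains cap-dependent translation, had 721 and 645 TPM in PR36 and 372 TPM in UPF1 RNAi heads (adjusted p = 0.629).

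**Figure D5:**
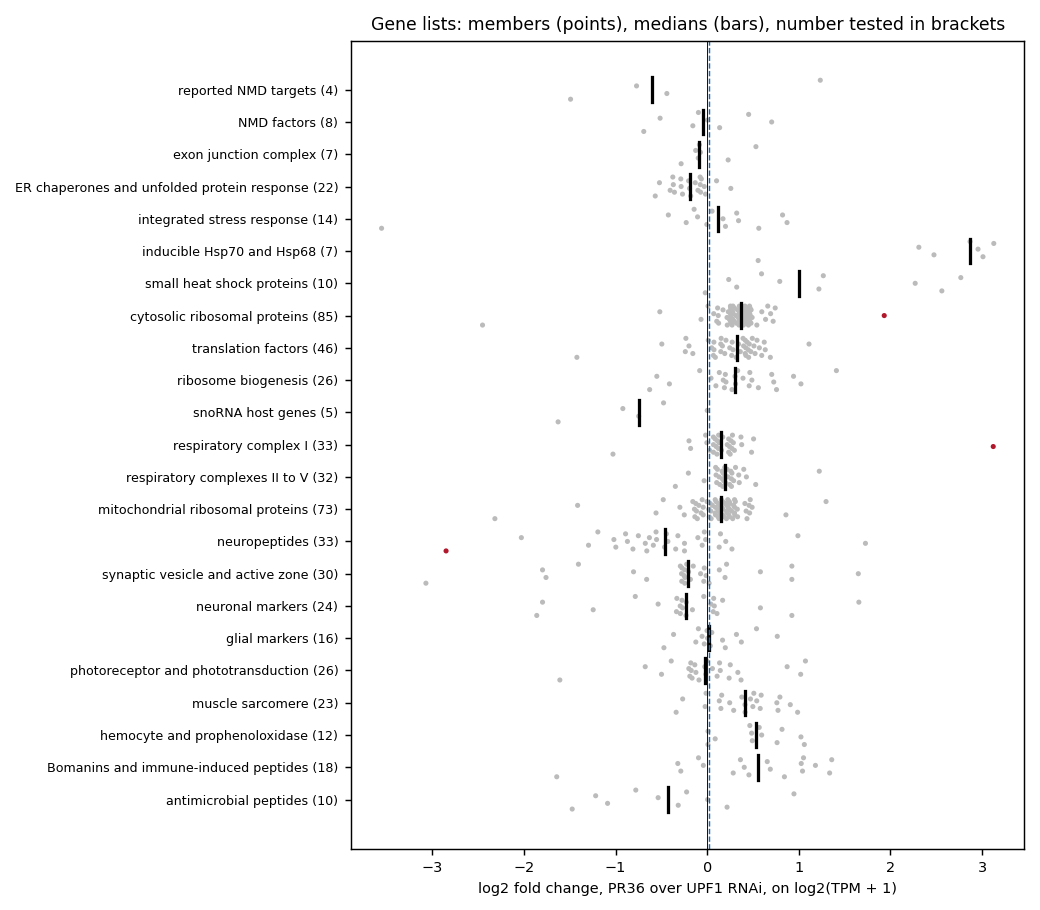
Log2 fold change, PR36 over UPF1 RNAi, of each tested member (points, red where called) and the median (black bar) of 23 gene lists, with the median of all genes, 0.02, as a dashed line. The ribosomal protein genes have a median of 0.37 and range from -2.45 to 1.93. The neuropeptide genes have a median of -0.47 and range from -2.85 to 1.73.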

How the data were processed

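Per the labels, RNA was extracted with Trizol. Per the submitters' processing notes, tools included HISAT2 2.1, HISAT and bcl2fastq, with BDGP6 as the build. What computed the expression values, and whether with strand, is not given in the sources used here. TPM of 26309 transcripts were deposited by the authors for 7 named libraries, beside 1 unnamed value column that was set aside. TPM hold no depth, so no counting intervals are given. Symbols and coordinates (1-based) come from BDGP6, Ensembl release 115, which held 99.4% of the transcripts. Gene values are sums of listed transcripts, 13656 genes, 11597 with every reference transcript listed.

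Features averaging 1 TPM or more across the 7 libraries were tested as log2(TPM + 1), which understates changes of low genes, with limma 3.58.1 in R 4.3.3 (1 coefficient per genotype, contrast PR36 minus UPF1 RNAi, empirical Bayes with trend, two-sided, Benjamini-Hochberg over all features, adjusted p below 0.05). Residual degrees of freedom were 3 and prior ones 4.14 for genes. The fit was also run on simulated gene values with normally distributed noise. These held no division of reads among transcripts and no failed estimates, so that run does not bear on such values. Lists are described by counts and medians, without a set test. The comparison, its gene lists and the rules for naming were chosen with earlier results of these data known. Named were the 12 highest and 12 lowest called fold changes with at least 5 TPM in the higher group (filled to 12 by smallest p), up to 4 called members of each of 50 lists, NMD factors and targets, and 6 transcripts per direction. Other called genes, the transcripts of NMD factors and exon junction genes, and those of the 10 genes with opposite calls were named after their values were seen. Tables and figures were made with pandas 2.3.3, numpy 2.4.6 and matplotlib 3.10.9 under Python 3.11.15. Alternatives covered the pseudocount, filter, rescaling, limma options, libraries fitted, a replicate block and each replicate left out.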

Additional observations from a re-analysis of the deposited data

How the results depend on the processing

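Every one of the 40 called genes and 116 called transcripts that could be tested kept its direction under each alternative run. Both PR36 libraries lay on the same side of the only UPF1 RNAi library in all of them. Only a rescaling or the replicate block could therefore have reversed a direction. The number of calls moved. For genes higher and lower, beside 32 and 8, the counts were 1 and 0 in a fit on the 3 compared libraries alone (714 genes had an unadjusted p below 0.05), 17 and 48 without a filter, 54 and 18 with robust moderation, 48 and 19 without PA36, 140 and 121 without PA36 replicate 1 and PR36 replicate 1, 45 and 5 with a pseudocount of 0.1, and 23 to 50 and 5 to 44 when 1 replicate was left out. For transcripts, beside 73 and 43, they were 0 and 0, 100 and 312, 69 and 27, 12 and 6, 0 and 0, 100 and 21, and 0 to 12 and 0 to 7 under the same settings. A minimum mean of 5 TPM gave 14 transcripts lower, a pseudocount of 0.5 gave 28, a filter on the 3 libraries compared 70 and moderation without trend 72. Over all tested genes, differences between replicates 1 and 2 correlated little between genotypes (-0.077, 0.097 and -0.074). Such correlations do not describe small sets of genes. Inducible Hsp70 and Hsp68 genes took 0.65% and 0.47% of the listed TPM in replicate 1 of PR36 and PA36. They took 0.0032% and 0.0029% in replicate 2 of these, and 0.044% and 0.048% in (G4C2)36 replicates 1 and 2. A replicate block gave 39 and 17 genes and 4 and 0 transcripts. Median-of-ratios gave 11 genes lower. The cause of these shifts was not tested. The fit without PA36 replicate 1 and PR36 replicate 1 and the fit on the 3 compared libraries each had 1 residual degree of freedom. Their counts are given only as a dependence on the settings. Upf3 and nonC, near 0, changed sign: with 1 PR36 replicate left out Upf3 ranged from -0.27 to 0.07 and nonC from -0.03 to 0.04, and with PA36 replicate 1 also left out Upf3 was 0.07 and nonC -0.03. nonC was also -0.03 with median-of-ratios, -0.01 with quantile normalization and -0.10 with the replicate block.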
